A study of Mus musculus with 7 samples.

Results

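Of the 12771 genes counted in cancer-associated fibroblasts (CAFs) from mouse pancreatic tumors, 9 belong to the calcitonin peptide family and its receptor system. They comprise 4 ligand genes, Calca, Calcb, Adm and Adm2, and 5 genes for the receptor and its partners, Calcrl, Ramp1, Ramp2, Ramp3 and Crcp. The 9 were taken by gene name and were selected on results of the comparison described here, so their differences between the groups are given as a description and were not tested. The CAFs came from orthotopic tumors of KPC cells, a mouse pancreatic cancer line, in 8-week-old male C57BL/6 J mice (C57BL/6 in the labels), and were sorted 2 to 3 weeks after injection as live CD45-/CD31-/EpCAM-/PDPN+ cells. In 1 group of tumors the KPC cells carried a lentiviral short hairpin RNA against Brca2 (shBrca2, 4 libraries, replicates 1 to 4), and in the other a non-targeting hairpin from the same vector (shControl, 3 libraries, replicates 1, 2 and 4). The hairpin was in the cancer cells and not in the fibroblasts, and both groups share the cell line, the vector and the sort. Each library was 1 mouse.

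The peptides of this family are short hormones cut from longer precursors. The Calca transcript is spliced either to calcitonin, the hormone of thyroid C cells, or to α-CGRP, a vasodilator of sensory nerves, and Calcb encodes the closely related β-CGRP. Adm encodes adrenomedullin, a vasodilator made by endothelial cells, fibroblasts and many tumors and a well-known hypoxia-induced gene, and Adm2 encodes adrenomedullin 2, also called intermedin. CGRP, adrenomedullin and intermedin act on the receptor CALCRL, which couples to Gs and cAMP and changes its ligand with its partner: RAMP1 makes it a CGRP receptor, while RAMP2 and RAMP3 make it an adrenomedullin receptor. Crcp encodes a small intracellular protein that helps this receptor to couple and that is also a subunit of RNA polymerase III.

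Library depth lay between 1898679 and 5990579 counts. No pair of libraries of a group agreed within sampling noise, as the mean chi-square per gene was at least 3.16, where counting error alone gives about 1. Levels below are counts divided by DESeq2 size factors (normalized counts), with the standard deviation (SD) over libraries. Values of single libraries are listed by replicate, 1, 2 and 4 for shControl and 1 to 4 for shBrca2. The libraries read 3′ ends, so counts of different genes were not divided by length. Shares and ratios of counts between genes are given below to compare libraries and not to rank the genes. Fibroblast identity was checked first: all 10 markers on the fibroblast list were counted, Pdgfra lay at 549 to 688 normalized counts in shControl and 591 to 656 in shBrca2 CAFs, and Pdpn, the sorted marker, at 600 to 670 and 457 to 590. The endothelial marker Pecam1, the gene of the CD31 gate, did not exceed 17.7 normalized counts in a library. Epcam and Ptprc, the genes of the other gates, are not among the counted genes and were not analysed here.

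The 2 CGRP genes were higher and Adm was lower in shBrca2 CAFs. In the receptor system Ramp2 was lower, and the other partners and the receptor itself lay near the limit of detection, apart from Crcp. The call rule asked for a DESeq2 adjusted p under 0.1, more than 0.5 of log2 fold change in size and a mean of over 5 normalized counts. By this rule 3 members lay on the higher side, 2 on the lower side and 4 on neither. Over all 12768 genes tested 3.77% were called higher, 5.27% lower and 9.04% in either direction. In 6 members no library of 1 group fell within the range of the other, and over all genes tested this held for 17.1%. Since the members were selected on this contrast, nothing is read from these counts. 8 members had a mean over 5 normalized counts, and 5 had 10 or more counts in at least 3 libraries. Here, as in any bulk sample, fewer cells that make a transcript and less transcript per cell cannot be told apart.

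**Figure D1:**
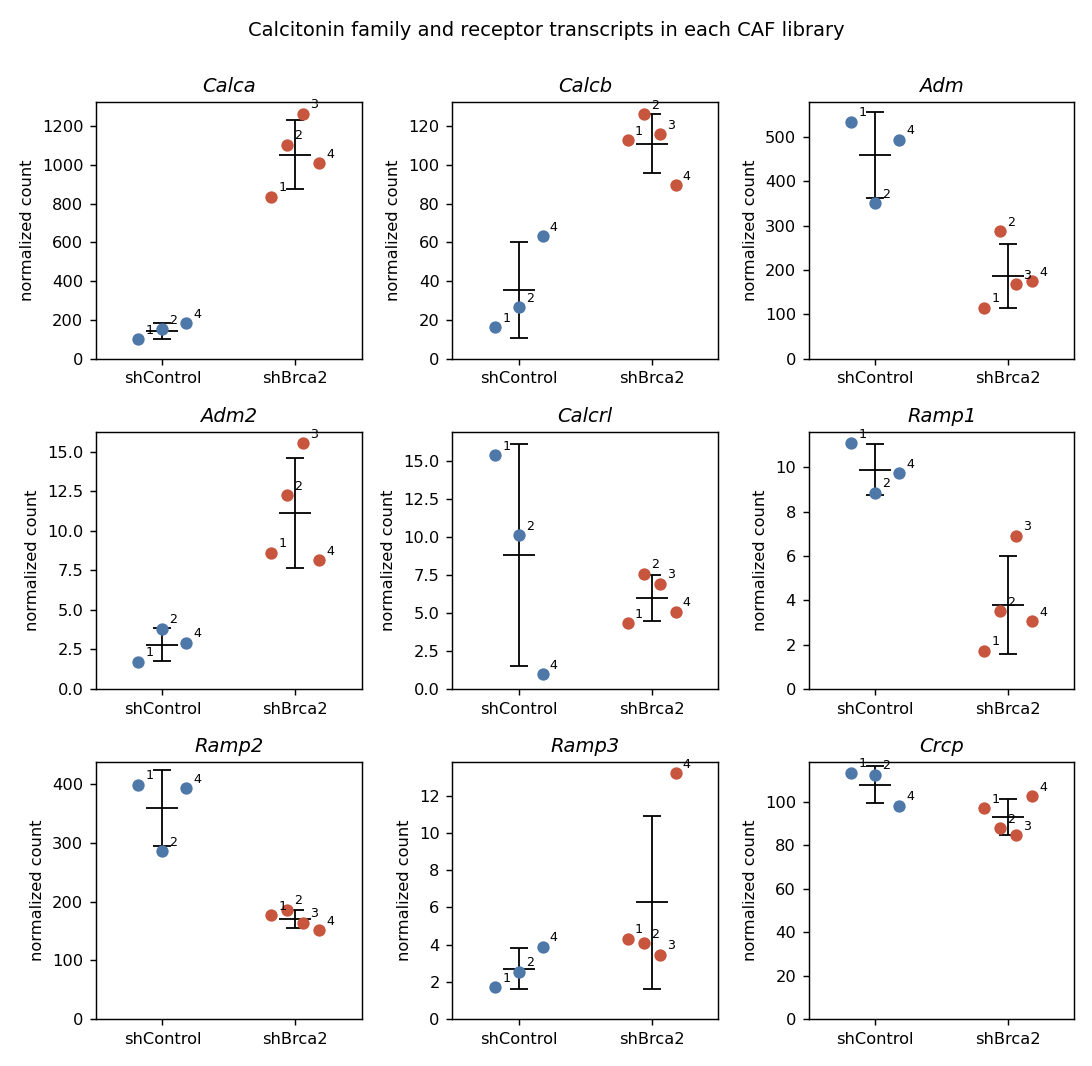
Normalized counts (y axis, linear, each panel from 0) of the 9 genes in each of 7 CAF libraries, by group. Points are libraries numbered by replicate, the long bar is the group mean and the error bar the SD. Calca, Calcb and Adm2 are higher in every shBrca2 library, Adm, Ramp1 and Ramp2 are lower in every one, and Calcrl, Ramp3 and Crcp overlap.

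Calca, the calcitonin and α-CGRP gene, had 102, 153 and 183 normalized counts in the shControl libraries. In the shBrca2 libraries it had 836, 1103, 1264 and 1007. The groups stood far apart, with the lowest shBrca2 library 4.57 times the highest shControl library. The means were 145.9 ± 41.1 (SD, n = 3) and 1053 ± 179 (SD, n = 4), 7.23-fold higher, for which the log2 fold change was 2.85 (standard error, SE, 0.23). Raw counts ran from 119 to 1893, so the spread within the groups (28.2% and 17.0% of the mean) was well above what counting error alone would give (8.41% and 3.15%). The table sums all transcripts of Calca. The mouse annotation lists 14 of them with 11 distinct 3′ ends, so the share of the calcitonin and the CGRP forms cannot be told apart here.

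Calcb, the β-CGRP gene, differed in the same direction. It had 16.2, 26.6 and 63.2 normalized counts in the shControl libraries, and 113, 126, 116 and 89.4 in the shBrca2 libraries. All shBrca2 libraries were above all shControl libraries, but shControl replicate 4 came within a factor of 1.42 of the lowest of them. The means were 35.3 ± 24.7 (SD, n = 3) and 110.9 ± 15.4 (SD, n = 4), and the log2 fold change was 1.65 (SE 0.37), or 3.14-fold. The shControl group was the more uneven one, with a coefficient of variation of 69.9% against 13.9% in shBrca2. That unevenness ran beside the summed level of 11 mesothelial markers, which was 1426, 2125 and 4275 normalized counts in the shControl libraries and 3648 to 4017 in shBrca2 CAFs. The epithelial, immune, blood endothelial and lymphatic marker sums, given below, stood in the same order over the shControl libraries (428, 824 and 1209 for the epithelial one). Their part in the Calcb result was not tested.

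Both CGRP genes lie on chromosome 7 (GRCm38.p6), Calca at 114625981 to 114636910 and Calcb at 114716555 to 114723368, with 79644 bases between them. As neighbors and paralogs they could in principle share reads. Their annotated transcripts have 12 windows of 50 bases in common, 0.487% of those of Calca, and the longest shared run is 61 bases. No window was shared between the last 500 bases of Calca transcripts and those of Calcb transcripts, the part that 3′ libraries read. Windows in that part of 1 gene and elsewhere in the other were not searched for separately. Whether reads were shared was not tested. The ratio of the counts of the pair varied over the libraries. There were 6.26, 5.76 and 2.89 Calca counts for each Calcb count in the shControl libraries, and 7.42, 8.76, 10.9 and 11.3 in the shBrca2 libraries. The mean log2 ratio was 2.24 ± 0.61 and 3.24 ± 0.28.

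Within 500000 bases of the pair, 5 other protein-coding genes were counted. Pde3b, which encodes a phosphodiesterase that breaks down cAMP, was called higher, with 7.65 normalized counts in shControl and 23.7 in shBrca2 CAFs and a log2 fold change of 1.64 (SE 0.46, DESeq2 adjusted p = 0.0076). Without shBrca2 replicate 1 this call was lost (adjusted p = 0.12). The other 4 were not called. Their log2 fold changes were 0.40 (SE 0.26) for Copb1, 0.13 (SE 0.28) for Psma1, 0.20 (SE 0.63) for Cyp2r1 and 0.01 (SE 0.59) for Insc, which lies on the far side of Calcb.

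**Figure D2:**
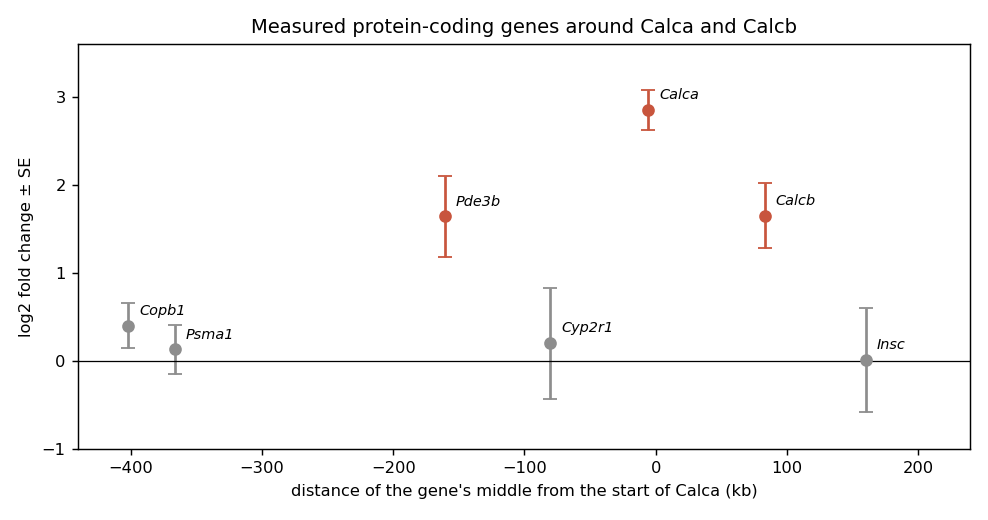
Log2 fold change (shBrca2 over shControl, y axis) of the counted protein-coding genes around Calca and Calcb, with bars of 1 standard error, against the distance in kilobases of each gene's middle from the start of Calca (x axis, along the chromosome). Calca at 2.85, Calcb at 1.65 and Pde3b at 1.64 stand above Copb1, Psma1, Cyp2r1 and Insc, which range from 0.01 to 0.40.

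Adm, the adrenomedullin gene, went the opposite way. It had 534, 350 and 493 normalized counts in the shControl libraries, and 115, 288, 168 and 175 in the shBrca2 libraries. Every shBrca2 library was below every shControl library, and the closest pair, shControl replicate 2 and shBrca2 replicate 2, was 1.22 times apart. The means were 459.2 ± 96.3 (SD, n = 3) and 186.4 ± 72.7 (SD, n = 4), 2.45-fold lower, with a log2 fold change of -1.30 (SE 0.29). The gene lies on chromosome 7 at 110627657 to 110629820, and 520 of its exon bases overlap Gm72687, a gene on the opposite strand. How reads of the 2 strands were counted is not given in the sources used here.

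Adm2, the intermedin gene, was rare. There were 2, 3 and 3 raw counts in the shControl libraries, and 10, 21, 9 and 8 in the shBrca2 libraries. On the normalized scale these were 1.71, 3.80 and 2.92 against 8.61, 12.2, 15.5 and 8.13, again without overlap. The means of 2.81 ± 1.05 (SD, n = 3) and 11.1 ± 3.47 (SD, n = 4) gave a log2 fold change of 2.01 (SE 0.71), with a 95% interval from 0.61 to 3.41. It passed the call rule, but with 1 library left out it passed in 1 of 7 fits, the one without shControl replicate 2. Adm2 lies on chromosome 15 at 89322720 to 89324731.

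The opposite directions of Calca and Adm turned around the make-up of the ligand counts. Calca made up 15.6%, 28.7% and 24.6% of the raw counts of the 4 ligand genes in the shControl libraries, and 77.9%, 72.1%, 80.9% and 78.7% in the shBrca2 libraries. Adm made up 81.7%, 65.6% and 66.4% in the shControl libraries and 10.7%, 18.8%, 10.7% and 13.7% in the shBrca2 libraries. For each Adm count there were 0.19, 0.437 and 0.371 Calca counts in shControl and 7.25, 3.83, 7.55 and 5.76 in shBrca2 CAFs. These are shares of 3′-end counts and not of peptide, and a ratio within a library does not depend on the size factors.

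**Figure D3:**
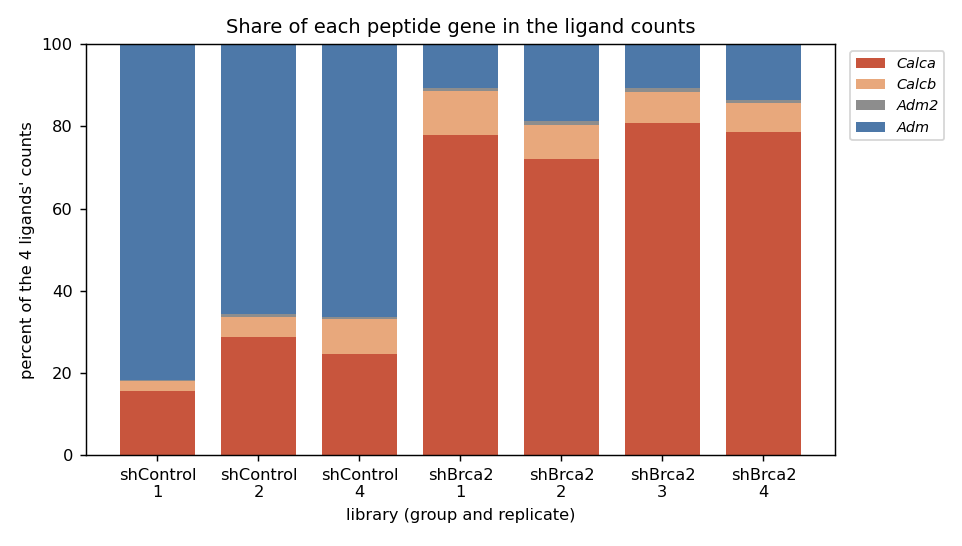
Share (y axis, percent from 0 to 100) of each of the 4 ligand genes in their summed raw counts, 1 bar for each of 7 libraries. Adm fills 65.6% to 81.7% of the bar in the 3 shControl libraries, and Calca 72.1% to 80.9% in the 4 shBrca2 libraries.

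The sequence before the start is shown for Calca and Adm, the ligand genes whose counts differed in opposite directions. The lines give the 250 bases upstream of the RefSeq start of Calca (minus strand, GRCm38.p6 chr7:114636358-114636607) and of Adm (plus strand, chr7:110627407-110627656), each 5′ to 3′ on the strand of its gene. Capitals mark TGACG, the core of the cAMP response element, in Calca. In Adm they mark CACGC, which is the core GCGTG of the hypoxia response element read from the other strand. The annotated span of Calca reaches further upstream, so its window lies within the gene, but in no annotated exon. The window of Adm lies wholly in annotated exon sequence, of which the gene and strand were not looked up.
Calca: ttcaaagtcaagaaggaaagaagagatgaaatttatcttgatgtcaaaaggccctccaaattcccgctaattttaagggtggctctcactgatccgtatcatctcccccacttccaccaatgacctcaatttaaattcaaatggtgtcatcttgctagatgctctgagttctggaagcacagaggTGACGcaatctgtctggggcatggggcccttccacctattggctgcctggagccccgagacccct
Adm: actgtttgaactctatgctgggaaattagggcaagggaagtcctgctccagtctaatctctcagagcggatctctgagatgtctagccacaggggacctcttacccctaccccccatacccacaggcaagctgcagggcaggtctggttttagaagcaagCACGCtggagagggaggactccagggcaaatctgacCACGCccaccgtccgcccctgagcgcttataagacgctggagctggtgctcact

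A window of this kind was at hand for 6 of the 9 members, Calca, Adm, Adm2, Calcrl, Ramp1 and Ramp3. Each was searched on both strands for ACGTG and GCGTG (hypoxia response element), for TGACG (cAMP response element), for TGANTCA (AP-1) and for GAANNTTC (heat shock element). Calca held 1 TGACG, 65 to 61 bases upstream of its start. Adm held GCGTG at 90 to 86 and at 54 to 50 bases upstream, and Ramp3 held it at 219 to 215 and at 65 to 61. None of the other searched letters occurred in the 6 windows. Among 32851 windows of the same length, 38.6% held ACGTG or GCGTG, 17.8% held TGACG, 6.75% held TGANTCA and 6.69% held GAANNTTC, so matches of these kinds are common. A match is a description of the letters and was not tested as a binding site.

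Calcrl, the gene of the receptor itself, was close to the detection limit in these CAFs. It had 18, 8 and 1 raw counts in the shControl libraries, and 5, 13, 4 and 5 in the shBrca2 libraries. The normalized counts were 15.4, 10.1 and 0.973 against 4.30, 7.58, 6.91 and 5.08. The shControl libraries covered the whole range of the shBrca2 libraries. The log2 fold change was -0.57 (SE 0.74), with a 95% interval from -2.02 to 0.88, and it turned to 0.16 when shControl replicate 1 was left out. A difference in Calcrl was not detected, and the interval does not settle its direction. It lies on chromosome 2 at 84330626 to 84425405.

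Ramp2, the partner that makes the receptor bind adrenomedullin, had 400, 286 and 394 normalized counts in the shControl libraries, and 177, 187, 164 and 151 in the shBrca2 libraries. The shBrca2 libraries lay close together, and the lowest shControl library was 1.53 times the highest of them. The means were 359.9 ± 64.1 (SD, n = 3) and 169.8 ± 15.3 (SD, n = 4), 2.12-fold lower, with a log2 fold change of -1.08 (SE 0.19). Ramp2 (chromosome 11, 101246334 to 101248250) shares 1133 annotated exon bases with Vps25 on the same strand, whose counts cannot be fully told from its own. Vps25, an endosomal sorting gene, had a log2 fold change of 0.13 (SE 0.14) and was not called.

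Ramp1 and Ramp3 were rare. Ramp1, the CGRP receptor partner, had 13, 7 and 10 raw counts in the shControl libraries, and 2, 6, 4 and 3 in the shBrca2 libraries. Its normalized counts were 11.1, 8.86 and 9.73 against 1.72, 3.50, 6.91 and 3.05, so the groups did not overlap, but the call rule was not met (log2 fold change -1.51, SE 0.67, 95% interval from -2.82 to -0.20). Ramp3, the other adrenomedullin partner, had 2, 2 and 4 raw counts in shControl and 5, 7, 2 and 13 in shBrca2 CAFs. Normalized, these were 1.71, 2.53 and 3.89 against 4.30, 4.08, 3.45 and 13.2. The groups overlapped and shBrca2 replicate 4 stood above all others, with a log2 fold change of 1.22 (SE 0.86). With a mean of 4.74 normalized counts Ramp3 is the member that fell under the minimum of 5. Ramp2 supplied 96.2% to 96.9% of the counts of the 3 RAMP genes in shControl libraries and 90.3% to 96.7% in shBrca2 libraries. Reads of Vps25 may be among the Ramp2 counts, as stated above. Ramp1 lies on chromosome 1 at 91179822 to 91225196 and Ramp3 on chromosome 11 at 6658506 to 6677478, where 101 of its exon bases overlap Gm11978 on the opposite strand.

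Crcp encodes the intracellular coupling protein. It had 114, 113 and 98.3 normalized counts in the shControl libraries, and 97.2, 88.0, 84.6 and 103 in the shBrca2 libraries. The groups overlapped. The means were 108.1 ± 8.59 (SD, n = 3) and 93.1 ± 8.29 (SD, n = 4), and the log2 fold change was -0.21 (SE 0.20) and a 95% interval from -0.61 to 0.18. Crcp lies on chromosome 5 at 130029306 to 130060787.

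**Figure D4:**
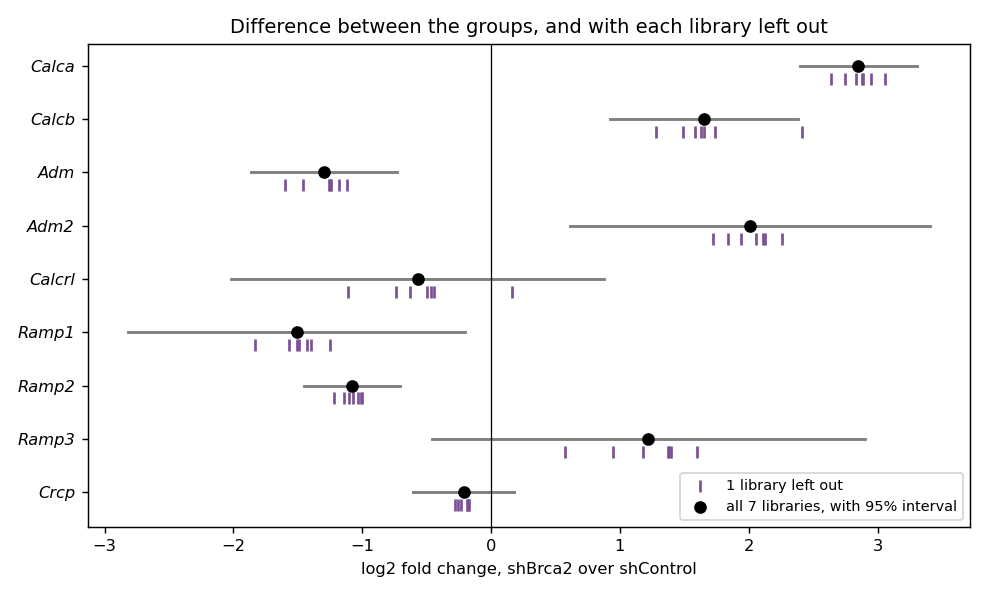
Log2 fold change (shBrca2 over shControl, x axis) of each of the 9 genes. Black points with gray lines are the fit of all 7 libraries with its 95% interval, and purple ticks are the fits with 1 library left out. Calca (2.64 to 3.06 over the ticks), Calcb (1.28 to 2.41), Adm (-1.60 to -1.12) and Ramp2 (-1.22 to -1.0) keep their side of 0, and for Calcrl 1 tick lies above 0.

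Adm and Ramp2, ligand and partner of the same receptor, were both lower, in a ratio that varied more within the shBrca2 than within the shControl group. There were 1.34, 1.23 and 1.25 Adm counts for each Ramp2 count in the shControl libraries, and 0.65, 1.54, 1.02 and 1.15 in the shBrca2 libraries. The mean log2 ratio was 0.34 ± 0.06 in shControl and 0.06 ± 0.52 in shBrca2 CAFs. In shBrca2 replicate 2 both were at the highest level of their group, Adm at 288 and Ramp2 at 187 normalized counts, with Adm further from the rest of its group than Ramp2.

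The markers of other cells that make or sense these peptides were summed in each library. The 9 counted blood endothelial markers, which mark cells rich in Calcrl and Ramp2, added up to 165 to 301 normalized counts in shControl and 238 to 309 in shBrca2 CAFs. Pecam1 among them had a mean of 8.26 and 0.576 (log2 fold change -3.60, SE 1.22, DESeq2 adjusted p = 0.031). It was not called, as its mean over all libraries was 3.87, under the minimum of 5. Pecam1, Tek and Vwf were lower in every shBrca2 library, and Erg was higher in every one. None of the 9 was called with DESeq2 on all 7 libraries, 1 was called lower with edgeR, and their median log2 fold change was 0.51. With 1 library left out, 0 to 2 of them were called higher and 0 to 1 lower. The 9 neuron and Schwann markers added up to 719 to 952 and 677 to 978, with a median log2 fold change of -0.56. Scn7a among them was called lower (log2 fold change -1.32, SE 0.39, DESeq2 adjusted p = 0.015), a call lost without shControl replicate 1. The 2 islet genes counted, Ins1 and Ins2, added up to 2.53 to 12.0 and 1.72 to 2.03, without overlap. Chga, Chgb, Snap25 and Elavl4 are not among the counted genes and were not analysed here. The groups also stood apart in the 9 epithelial markers, with 428 to 1209 against 1539 to 2170, of which 6 were called higher and none lower, and in the immune markers, with 340 to 426 against 518 to 601. Of 5 immune markers tested, Csf1r and Cd14 were called higher and Jchain lower, and the median log2 fold change was -0.26. Of the 11 mesothelial markers 3 were called higher, all keratin genes that also stand on the epithelial list. The 9 pericyte markers summed to 750 to 1312 and 1285 to 1702 (3 called higher), the 3 lymphatic markers to 19.7 to 37.0 and 23.2 to 41.5, and the 10 fibroblast markers to 125600 to 144400 and 100500 to 120000, lower in every shBrca2 library (2 called lower, Dcn and Lum). The part of any of these in the Calca, Calcb, Adm or Ramp2 results was not tested.

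Genes around the pathway were read from 8 hand-written lists, by counts of called genes and the median log2 fold change, beside a median of 0.01 over all genes tested. Among peptide processing genes 1 of 8 was called higher and 2 lower (median -0.39). Cpe, the carboxypeptidase that trims peptide hormones, rose from 37.8 to 139.7 normalized counts (log2 fold change 1.90, SE 0.32, DESeq2 adjusted p = 2.3e-06). Pcsk6, a proprotein convertase, fell from 227.1 to 51.6 (log2 fold change -2.13, adjusted p = 6.4e-08), and Scg3, a secretory granule protein, fell to 3, 4, 2 and 0 raw counts in the shBrca2 libraries from 31, 5 and 32 in shControl (adjusted p = 0.00023). Furin, a convertase of most cells, had a log2 fold change of 0.20 (SE 0.24). Pam, the enzyme that adds the C-terminal amide CGRP and adrenomedullin need, was named after its values were seen, with 41.0 and 27.9 normalized counts (log2 fold change -0.54, adjusted p = 0.38). Of the prohormone convertases of neuroendocrine granules, Pcsk1 and Pcsk2 are not among the counted genes and were not analysed here.

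Of 9 counted genes on the list of peptide-degrading enzymes, 2 were called lower and none higher (median -0.45). Whether each of them cuts the peptides of this family was not examined. Mme and Ece2, also on the list, are not among the counted genes and were not analysed here. Dpp4, a dipeptidyl peptidase of the cell surface, fell from 35.8 to 9.81 normalized counts (log2 fold change -1.87, DESeq2 adjusted p = 0.0021), and Anpep, aminopeptidase N, from 213.6 to 114.2 (log2 fold change -0.89, adjusted p = 0.0011). Mmp2, a metalloprotease that can cut adrenomedullin, was not called at -0.49 (SE 0.21, adjusted p = 0.16). Ackr3, described as a scavenger receptor for adrenomedullin, had 840.4 ± 169 normalized counts in shControl and 303.3 ± 241 in shBrca2 CAFs, and missed the rule (log2 fold change -1.47, SE 0.60, adjusted p = 0.13) that it passed with edgeR.

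Downstream of the receptor, 1 of 32 coupling and cAMP genes was called higher and 3 lower, with a median of 0.00. Pde3b was the higher one. Adcy5 (log2 fold change -1.17, DESeq2 adjusted p = 0.00012) and Adcy3 (-0.54, adjusted p = 0.099), both adenylyl cyclases, and Grk5, a receptor kinase (-1.03, adjusted p = 0.0061), were the lower ones. The Grk5 call was lost without shControl replicate 1, and Adcy3 was called in 1 of 7 fits with a library left out, that without shBrca2 replicate 3. Gnas, which encodes the Gs protein, was at -0.26 (SE 0.14) and Prkaca, the catalytic subunit of protein kinase A, at 0.01 (SE 0.14). None of 18 target genes of cAMP and CREB was called with DESeq2 or with edgeR, 3 had an unadjusted p under 0.05, and their median was -0.14. Fos had 11580 and 10780 normalized counts (log2 fold change -0.10, SE 0.17), Fosb was at -0.12 (SE 0.19) and Nr4a1 at -0.29 (SE 0.22). Per the study's methods the tumors were digested with enzymes before the sort. The part of this step in these levels was not tested. With 1 library left out, at most 1 of these targets was called in each direction.

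RAMPs also partner other class B receptors, of which 4 were counted. Gipr, the receptor of the incretin GIP, rose from 1, 4 and 5 raw counts in shControl to 27, 28, 31 and 14 in shBrca2 CAFs (log2 fold change 2.91, SE 0.68, DESeq2 adjusted p = 0.00093). Adcyap1r1, a PACAP receptor, rose from 143.2 to 221.7 normalized counts with overlapping groups (log2 fold change 0.63, adjusted p = 0.062), and this call was lost without shControl replicate 1 or 4 and without shBrca2 replicate 1, 2 or 3. Pth1r, the parathyroid hormone receptor, fell from 220.7 to 128.2 (log2 fold change -0.80, adjusted p = 0.012), a call lost without shBrca2 replicate 1. Vipr2, a VIP receptor with a mean of 8.68 and 2.39, was lower in every shBrca2 library. It missed the rule (log2 fold change -1.90, SE 0.81, DESeq2 adjusted p = 0.15) that it passed with edgeR.

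Hypoxia targets and other vasoactive peptides are shown beside Adm, as it belongs to both kinds. Of 29 hypoxia targets, a list without Adm, 11 were called higher and none lower, and the median was 0.53. Over all genes tested 3.77% were called higher and 5.27% lower. The list was chosen with earlier results of these data known and was not tested. The 6 with the largest change were Car9 (log2 fold change 3.18), Egln3 (2.67), Car12 (2.45), Bnip3 (1.67), Hilpda (1.62) and Ankrd37 (1.18), which serve pH control, oxygen sensing, mitophagy and lipid storage among other roles. Ldha (0.44, DESeq2 adjusted p = 0.14) and Aldoa (0.47, adjusted p = 0.091) missed the rule. Car12 was called in 1 of 7 fits with a library left out, that without shControl replicate 2, and the other 5 in all 7. The direction of Adm was opposite to that of every called gene of the list. Leaving out shControl replicate 1 gave 7 calls and leaving out shControl replicate 2 gave 16, with none lower in any fit.

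Among 17 other vasoactive peptides and their receptors 1 was called higher and 4 lower, with a median of -0.37. Edn1, the vasoconstrictor endothelin 1, fell from 101.7 to 24.5 normalized counts (log2 fold change -2.08, DESeq2 adjusted p = 2e-07). Tac1, the substance P precursor that sensory neurons store together with CGRP, fell from 66.6 to 16.5 (log2 fold change -2.02, adjusted p = 7.4e-06), opposite to Calca. Agt, angiotensinogen, fell from 19.7 to 5.16 (adjusted p = 0.01), and its receptor gene Agtr1a from 48.0 to 19.0 with overlapping groups (adjusted p = 0.076). The Agt call was lost without shControl replicate 1 or 4, and that of Agtr1a without shControl replicate 1 or shBrca2 replicate 1, 3 or 4. Cck, the cholecystokinin precursor, had 0, 1 and 0 raw counts in shControl and 9, 12, 24 and 5 in shBrca2 CAFs (adjusted p = 0.0012), a call lost without shBrca2 replicate 3. Penk, the enkephalin precursor, was at 4108 and 2677 and was not called (log2 fold change -0.62, adjusted p = 0.23).

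**Figure D5:**
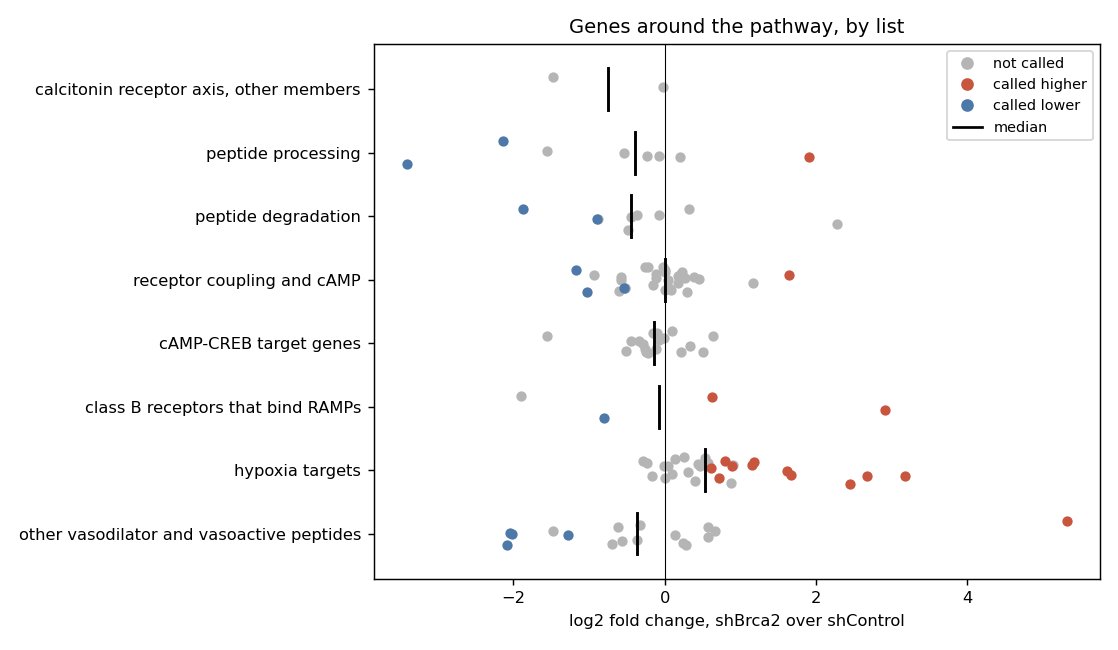
Log2 fold change (shBrca2 over shControl, x axis) of the counted genes of 8 lists (rows), 1 point for each gene. Red points were called higher, blue points lower and gray points not called, and black bars are list medians. The hypoxia targets hold 11 higher and no lower call around a median of 0.53, while the medians of the other lists lie between -0.75 and 0.00.

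The genes most like Calca and Adm over the 7 libraries were sought among 6734 genes with a mean of 50 or more normalized counts. Likeness was Pearson's r of log2(normalized count + 1), which includes the difference between the groups and shares the depth of each library. For Calca the closest were Tbl1x (r = 0.984), Cryab (0.981), Ak6 (0.978), Bnip3 (0.977) and Rcl1 (0.974). Their own log2 fold changes were smaller than that of Calca, from 0.36 for Rcl1 to 1.67 for Bnip3. For Adm the closest were Gngt2 (0.995), Slc25a25 (0.991), Pla1a (0.990), Gstm1 (0.986) and Rarres2 (0.985), with log2 fold changes from -1.59 for Gstm1 to -0.81 for Rarres2.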

How the data were processed

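CAFs were sorted from 3 shControl and 4 shBrca2 tumors and sequenced by a variant of MARS-seq, which reads 3′ ends. The authors deposited 1 table of raw counts per gene symbol. Per the submitters' processing notes bcl2fastq, cutadapt, STAR 2.4.2a, HTSeq, DESeq2 and build mm10 were used. Strand, annotation and collapsing of molecular barcodes are not given in the sources used here, so counts may hold PCR copies and intervals do not cover them. The study's methods mention more than 1 batch of RNA extraction and library preparation in their account of the laser-captured human samples. Whether this covers the CAF libraries is unclear, and their labels give no batch.

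The 9 members and all gene lists were chosen with earlier results of these data known. DESeq2 1.42.0 (R 4.3.3) was fitted to all 12771 genes and 7 libraries after the study's methods. Size factors were DESeq2's median of ratios, and the group was tested by likelihood ratio without a covariate. A gene was called at a Benjamini-Hochberg adjusted p under 0.1, an absolute log2 fold change over 0.5 and a mean normalized count over 5. 3 genes received no p. Errors are standard errors for fold changes and, beside group means, SDs over the libraries of the group. Fold changes were not shrunken, and 95% intervals are normal ones from the standard error. No list was tested, and some genes that the lists hold are not reported here.

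Named were all members, of each pathway list up to 6 called genes by size of change and up to 3 others by mean count, and the 5 genes most like Calca and Adm. Pdgfra, Pdpn, Pecam1, Tek, Vwf, Erg, Scn7a and the called immune and fibroblast markers were named as markers. Pcsk1, Pcsk2 and other uncounted genes were named for their absence from the table. Positions and promoter windows are from RefSeq on GRCm38.p6, and overlaps of exons and shared sequence from GENCODE vM39. Alternatives were the Wald test, edgeR 4.0.16 quasi-likelihood, TMM factors, a filter of 10 counts in 3 libraries, no independent filtering, a replicate block, and each library left out. On simulated counts for 12771 genes the fit recovered 69% of changes of 1 and 98% of changes of 2 on the log2 scale, and 15.2% of its calls were false. Each size was planted in 100 genes, all with higher mean counts than Adm2, Calcrl, Ramp1 and Ramp3. Recovery was thus not measured for genes as rare as these, and the false share depends on how many genes were changed.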

Additional observations from a re-analysis of the deposited data

Results flagged for a closer look

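Ramp3 had 1 library apart from the others of its group. In shBrca2 CAFs it had 4.30, 4.08, 3.45 and 13.2 normalized counts in replicates 1 to 4, and the gap between replicate 4 and the next library was 0.913 of the whole range, above Dixon's 95% critical value for 4 samples. The raw counts behind these values were 5, 7, 2 and 13. Chance flags about 1 in 20 groups by this measure, and 9 genes were examined. Without shBrca2 replicate 4 the log2 fold change of Ramp3 was 0.57.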

How the results depend on the processing

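The members were selected on this contrast, and the other fits reuse its libraries. Their calls in these fits are thus a description and not a test. Calca, Calcb, Adm and Ramp2 kept their direction and passed the call rule in all 13 other fits. Their log2 fold changes ran from 2.64 to 3.06, from 1.28 to 2.41, from -1.60 to -1.12 and from -1.22 to -1.0. The highest Calcb value came without shControl replicate 4. Adm2 passed in 5 of 12 other fits, all of the same sign. Calcrl, Ramp1, Ramp3 and Crcp passed in none, and Calcrl ran from -1.11 without shControl replicate 4 to 0.16 without shControl replicate 1. Over all genes, the number called higher was 481, and 463 with edgeR, and the number called lower 673, and 655 with edgeR. With 1 library left out the calls ran from 261 to 610 higher and from 354 to 695 lower, and the highest came without shControl replicate 2. Both numbers fell by more than 1.5 times without shControl replicate 1 (264 and 366), shBrca2 replicate 1 (261 and 354) or shBrca2 replicate 4 (290 and 372), and the number of lower calls also without shControl replicate 4 (418). Of the members, 2 to 3 were called higher and 2 lower in these fits. In the same fits 4 to 6 epithelial, 2 to 7 mesothelial and 0 to 4 pericyte markers were called higher. With the replicate number as a block (replicate block, a paired fit of replicates 1, 2 and 4) 242 genes were called higher and 322 lower, with Adm2, Gipr, Adcyap1r1, Pde3b, Grk5, Adcy3, Cck, Agt and Agtr1a no longer among them, and 7 of 29 hypoxia targets were called higher. This fit leaves out shBrca2 replicate 3. Libraries with the same number did not deviate together (correlations of -0.20, -0.26 and -0.044 for replicates 1, 2 and 4). Those with different numbers gave -0.099 to 0.23. With so few libraries this cannot settle whether the numbers pair the mice, and the labels do not say. Depth limits Adm2, Calcrl, Ramp1 and Ramp3, which had at most 21 counts in a library.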
